A study of Mus musculus with 9 samples.

Results

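Caspase genes were described in neural stem cells that had lost Smchd1 and in their undeleted controls. The genes are Casp1, Casp4 and Casp12, which belong to the inflammatory branch of the family, the apoptotic initiators Casp8, Casp9 and Casp2, and the executioner Casp6. They are 7 of the 25965 gene rows of the deposited expression table, found by their symbols, and were chosen by their log2 levels in deleted and control cultures, which were known. Of the 7, 6 were among the 14044 genes that passed the filter on low values (3 or more libraries at a log2 level of 0 or above), and Casp4 did not.

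RNA-seq was done on total RNA of neural stem cell lines derived from E14.5 embryos of C57BL/6 mice that carried floxed Smchd1 on both alleles. Smchd1 encodes a chromatin protein needed for the silencing of the inactive X and of some gene clusters. The Smchd1 del/del cultures comprised 3 female libraries, from lines 1, 2 and 3, and 1 male library, from line 5. The Smchd1 fl/fl cultures comprised 3 female libraries, from lines 1, 2 and 3, and 2 male libraries, from lines 5 and 7. The design text of the series names only female lines and del/fl controls, and the labels of the single samples were followed in its place. Each line had been divided, and the del/del part alone was transduced with the retrovirus MSCV-Cre-puro and received puromycin from 24 h on. Harvest was at day 7. The fl/fl part had neither virus nor drug, so that loss of Smchd1, retroviral transduction and puromycin cannot be told apart. Cre was delivered by the virus and not by a cell type specific promoter, and male del/del has 1 library. Cultures of different lines are separate cultures, while the del/del and fl/fl cultures of a line share their origin.

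Caspases are proteases that cut their substrates after aspartate and are made as inactive precursors. Inflammatory caspases are activated on inflammasomes, cut gasdermin D and cytokine precursors, and set off pyroptosis, a lytic form of cell death. Apoptotic initiators are activated on complexes below death receptors (Casp8) or on the apoptosome below mitochondria (Casp9), and pass the signal to the executioners, which take the cell apart. In the developing brain the mitochondrial route removes surplus progenitors and neurons.

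Levels are log2 RPM, the log2 of reads per M (1e+06) reads of the library, so a level of 0 is 1 RPM. The libraries held 74.0 to 105.1 M reads in del/del and 24.1 to 116.6 M in fl/fl cultures, female fl/fl 2 being the shallowest. Of these reads, 37.2% to 44.4% fell in listed genes in del/del libraries and 34.8% to 53.3% in fl/fl libraries. Smchd1 RNA was at 5.04 to 5.36 in the 4 del/del and at 6.16 to 6.81 in the 5 fl/fl libraries (log2 difference -1.19, SE 0.148, adjusted p = 0.00751 by limma), and the row does not tell which exons were read. Of 20 alternatives, 18 kept this call. It did not hold when male del/del 5 was left out (limma adjusted p = 0.0914), nor within the 6 libraries whose sample description begins with RNA-. All 10 neural stem cell markers passed the filter, with a summed level of 564 to 752 RPM in del/del and 529 to 1187 RPM in fl/fl libraries. The 3 libraries without that description are female del/del 1, female fl/fl 1 and male fl/fl 7, and in 354 kept genes all 3 lay over 1 log2 unit below the other 6, a split that none of the caspase genes showed.

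Casp1, Casp4 and Casp12 stand side by side on chromosome 9 and read in the same direction. In mm10 coordinates, as the table gives them, the row of Casp1 (ENSMUST00000027015) runs from 5298517 to 5307265, that of Casp4 (ENSMUST00000162846) from 5308828 to 5336783 and that of Casp12 (ENSMUST00000027009) from 5345430 to 5373032. Casp1 and Casp4 lie 1.563 kb apart, and Casp4 and Casp12 lie 8.647 kb apart. The 250 bases before their RefSeq start sites (GRCm38.p6, plus strand) are shown, with those of Casp8 on chromosome 1, since these 4 genes had non-overlapping levels in the 2 genotypes, and those of Casp2 stand beside them for a gene whose levels overlapped. Capitals mark sequence motifs of immune transcription factors found by search.
Casp1: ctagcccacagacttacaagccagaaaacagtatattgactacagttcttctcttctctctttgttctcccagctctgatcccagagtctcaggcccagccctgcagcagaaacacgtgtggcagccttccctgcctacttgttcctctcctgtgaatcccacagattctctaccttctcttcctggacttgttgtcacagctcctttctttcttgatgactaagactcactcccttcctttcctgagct
Casp4: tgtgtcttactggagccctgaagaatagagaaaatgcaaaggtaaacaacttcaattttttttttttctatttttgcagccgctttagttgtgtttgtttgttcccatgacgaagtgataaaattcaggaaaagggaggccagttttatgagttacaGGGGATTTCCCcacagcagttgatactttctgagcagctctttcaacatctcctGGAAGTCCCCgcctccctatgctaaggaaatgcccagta
Casp12: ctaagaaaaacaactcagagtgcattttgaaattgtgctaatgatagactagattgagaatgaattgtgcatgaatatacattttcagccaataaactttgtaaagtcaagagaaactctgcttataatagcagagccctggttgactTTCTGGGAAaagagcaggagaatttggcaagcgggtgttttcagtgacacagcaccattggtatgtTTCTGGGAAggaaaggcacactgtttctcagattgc
Casp8: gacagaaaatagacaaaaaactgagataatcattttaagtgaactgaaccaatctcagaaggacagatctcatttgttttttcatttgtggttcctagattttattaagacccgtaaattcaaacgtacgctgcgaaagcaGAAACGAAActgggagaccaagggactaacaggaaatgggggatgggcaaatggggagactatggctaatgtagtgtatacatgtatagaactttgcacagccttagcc
Casp2: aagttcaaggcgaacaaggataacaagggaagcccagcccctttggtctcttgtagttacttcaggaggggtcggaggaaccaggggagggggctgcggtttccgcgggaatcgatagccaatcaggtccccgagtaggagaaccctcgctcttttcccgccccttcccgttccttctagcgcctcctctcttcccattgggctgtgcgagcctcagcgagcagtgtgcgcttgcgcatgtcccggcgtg

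The windows are chr9:5298267-5298516 for Casp1, chr9:5308599-5308848 for the first of 2 listed start sites of Casp4, chr9:5345226-5345475 for Casp12, chr1:58802252-58802501 for Casp8, which lies inside the span of its row, and chr6:42264735-42264984 for Casp2. All 7 genes had a RefSeq entry. The motifs searched on both strands were the interferon-stimulated response element (GAAANNGAAA), the related element with 1 base fewer between its repeats (GAAANGAAA), the interferon gamma activated sequence or GAS (TTCNNNGAA) and the κB site. The Casp4 window held 2 overlapping κB matches at 93 and 92 bases before the start site and 1 more on the opposite strand at 39. The Casp12 window held the GAS match TTCTGGGAA at 102 and again at 36 bases before the start. In the Casp8 window GAAACGAAA stood 109 bases before the start, and none of the 4 motifs was found in the Casp1 or Casp2 windows. Of 32851 RefSeq promoter windows of this length 7.25% held a κB match, 7.02% a GAS, 2.68% GAAANGAAA and 2.98% GAAANNGAAA, which none of the caspase windows held. These matches are letters in a window, and binding of a factor was not measured.

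The windows also differed in CpG dinucleotides, the sites of DNA methylation. Casp1 and Casp12 held 1 CpG each, Casp4 held 3 and Casp8 held 5, below the median of 6 over all windows. Of all windows, 7.87% held fewer than Casp1 or Casp12, 29% fewer than Casp4 and 44.4% fewer than Casp8. Whether CpG content goes with the genotype difference was not tested. Casp2, Casp9 and Casp6 held 17, 25 and 11. The GC content was 49.2% for Casp1, 41.6% for Casp4, 39.2% for Casp12 and 39.6% for Casp8, against 60.4% for Casp2, 66% for Casp9 and 58.4% for Casp6, with a median of 52.4% over all windows.

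Casp1 encodes the protease of canonical inflammasomes, which matures interleukin 1β and interleukin 18. Its level was 1.11, 1.25 and 0.90 in female del/del 1, 2 and 3 and 1.14 in male del/del 5, against -0.01, 0.22 and 0.26 in female fl/fl 1, 2 and 3, -0.34 in male fl/fl 5 and -0.08 in male fl/fl 7. The lowest del/del library lay 0.64 log2 units above the highest fl/fl library. The mean was 1.10 ± 0.148 in del/del (SD, n = 4) and 0.01 ± 0.241 in fl/fl cultures (SD, n = 5). With sex in the model the log2 fold change was 1.06 (SE 0.203), or 2.08-fold higher in del/del. These levels rest on 160 to 250 reads per del/del library and on 28 to 131 reads per fl/fl library. Of the fl/fl libraries only female fl/fl 2 and 3 reached the filter's level of 0, so Casp1 passed the filter only with the del/del libraries.

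Casp12 encodes a caspase of the inflammatory group that in mice is tied to the endoplasmic reticulum. Its level was 1.63, 1.58 and 1.59 in female del/del 1, 2 and 3 and 1.77 in male del/del 5, against 0.83, 0.62 and 0.12 in female fl/fl 1, 2 and 3, 0.42 in male fl/fl 5 and -0.11 in male fl/fl 7. The 4 del/del libraries lay within 0.2 log2 units of each other, the 5 fl/fl libraries spread over about 1 unit, and the groups were 0.75 apart. The mean was 1.64 ± 0.0872 in del/del (SD, n = 4) and 0.38 ± 0.378 in fl/fl cultures (SD, n = 5). The log2 fold change of 1.24 (SE 0.217), 2.37-fold, was the highest of the 6 genes that passed the filter, on 229 to 347 reads per del/del and 37 to 208 reads per fl/fl library.

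Casp4, which in mice encodes caspase-11, the sensor of bacterial lipopolysaccharide in the cytosol, was close to the limit of detection. It had 18, 27 and 23 reads in female del/del 1, 2 and 3 and 50 reads in male del/del 5, against 26, 4 and 23 reads in female fl/fl 1, 2 and 3, 12 in male fl/fl 5 and 14 in male fl/fl 7. Its level was -2.04, -1.96, -2.10 and -1.03 in these del/del libraries, against -2.17, -2.59, -2.25, -3.13 and -3.04 in the fl/fl libraries. The groups did not overlap, but the gap was 0.06 log2 units, and male del/del 5 stood apart from the other 3 del/del libraries. In line 5 the level was 0.491 RPM in male del/del (95% exact Poisson interval 0.364 to 0.647, counting error only) and 0.114 RPM in male fl/fl (0.0591 to 0.200). In line 1 it was 0.243 RPM in del/del (0.144 to 0.384) and 0.223 RPM in fl/fl (0.146 to 0.327), and the intervals of the other female pairs overlapped too. Without a filter the log2 fold change of Casp4 was 0.84 (SE 0.413).

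Casp8, the initiator below death receptors, which also holds back necroptosis, was the only one of the apoptotic genes with separate groups. Its row on chromosome 1 (58795374 to 58847503, ENSMUST00000027189) had levels of 3.25, 3.02 and 3.01 in female del/del 1, 2 and 3 and 3.17 in male del/del 5, against 2.82, 2.14 and 2.50 in female fl/fl 1, 2 and 3, 2.61 in male fl/fl 5 and 2.58 in male fl/fl 7. All 4 del/del libraries lay above all 5 fl/fl libraries, with a gap of 0.19. The mean was 3.11 ± 0.118 in del/del (SD, n = 4) and 2.53 ± 0.249 in fl/fl cultures (SD, n = 5), and the log2 fold change was 0.60 (SE 0.142), or 1.51-fold. Of the 50-base words in the exons of Casp8, 4.37% also occur in the predicted gene Gm20257, so a part of its reads may not be its own.

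Casp9, the initiator that the apoptosome activates, pointed the other way with overlapping groups. Its row on chromosome 4 (141793612 to 141815976, ENSMUST00000128660) had levels of 3.13, 3.29 and 3.62 in female del/del 1, 2 and 3 and 3.28 in male del/del 5, against 3.76, 3.43 and 3.50 in female fl/fl 1, 2 and 3, 3.59 in male fl/fl 5 and 3.81 in male fl/fl 7. Female del/del 3 lay among the fl/fl libraries, and the other 3 del/del libraries below them. The log2 fold change was -0.28 (SE 0.13), or 1.21-fold lower in del/del, and -0.11 in the 6 libraries with the RNA- description. The row overlaps those of Cela2a and Ctrc by 1.015 kb, and reads there may count for all 3.

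Casp2, which is activated on the PIDDosome, had overlapping levels in the 2 genotypes. The level was 4.60, 4.45, 4.44 and 4.34 in female del/del 1, 2 and 3 and male del/del 5, against 4.56, 4.67, 4.37, 4.42 and 4.70 in female fl/fl 1, 2 and 3 and male fl/fl 5 and 7. The log2 fold change was -0.09 (SE 0.108), with an interval of -0.33 to 0.15. The row lies on chromosome 6 (42264985 to 42282508, ENSMUST00000031895).

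Casp6, an executioner known for cutting lamin A, was the steadiest of the 7. The level was 3.01, 2.99, 3.06 and 2.86 in female del/del 1, 2 and 3 and male del/del 5, against 2.89, 2.95, 2.83, 2.91 and 2.98 in female fl/fl 1, 2 and 3 and male fl/fl 5 and 7. All 9 libraries lay between 2.83 and 3.06, and the groups overlapped. The log2 fold change was 0.07 (SE 0.0926), with an interval of -0.14 to 0.27, and -0.02 with quantile normalization. The row lies on chromosome 3 (129901425 to 129914103, ENSMUST00000029626).

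**Figure D1:**
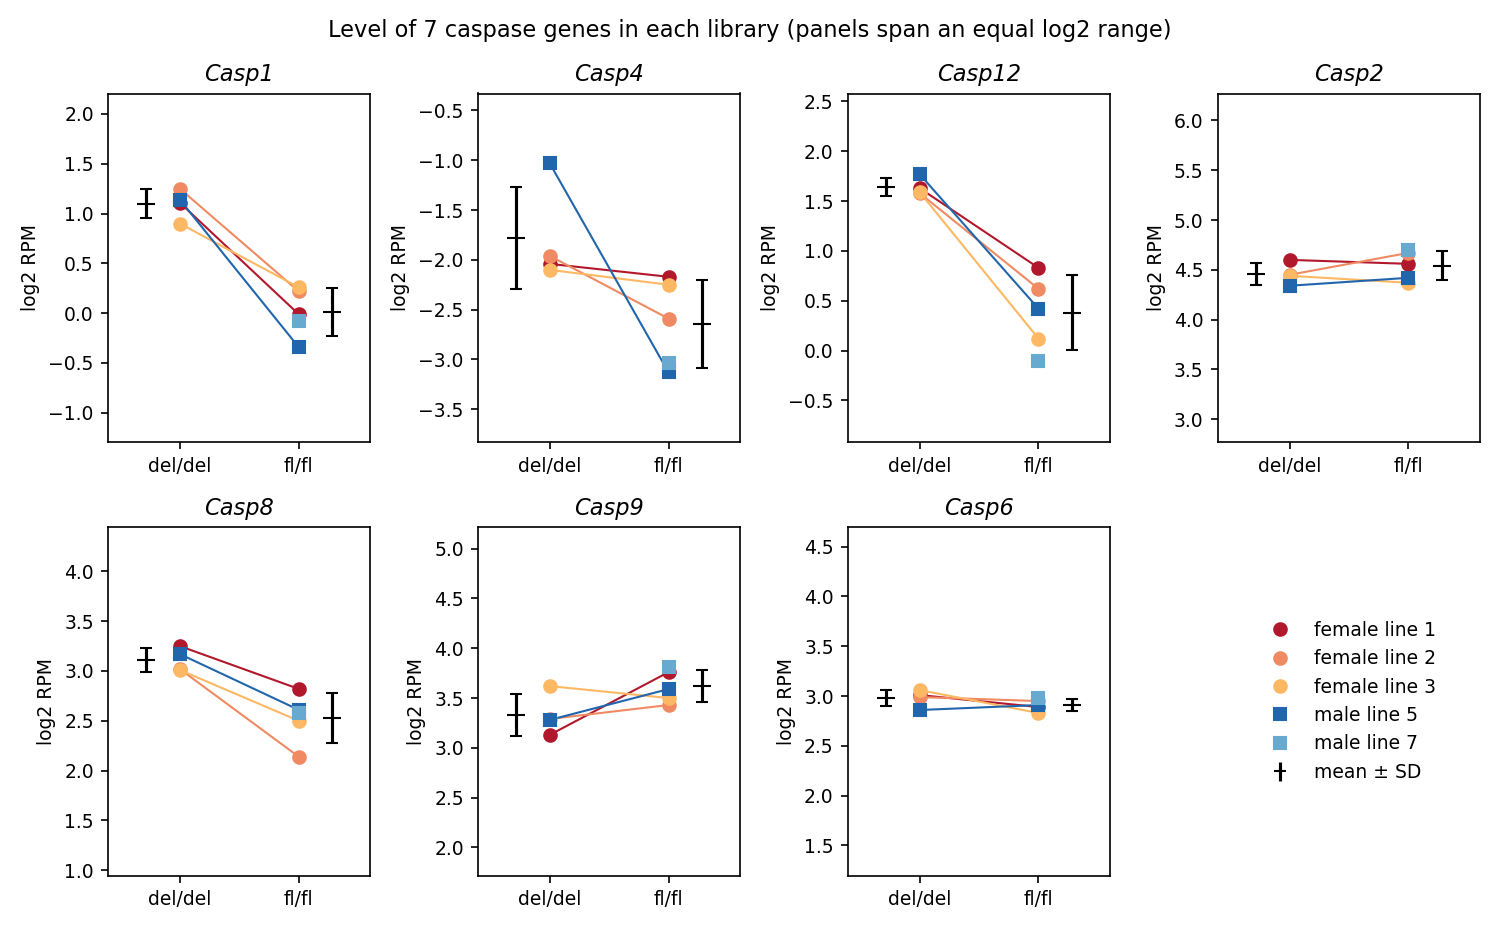
Level of the 7 caspase genes (log2 RPM, y axis) in del/del and fl/fl libraries, with lines joining the cultures of 1 cell line and bars for mean ± SD. Every panel spans the same range: Casp1, Casp12 and Casp8 separate by 0.64, 0.75 and 0.19 log2 units, Casp4 by 0.06 at the lowest level, and Casp2, Casp9 and Casp6 overlap.

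Across all kept genes, 203 of 14044 (1.45%) were called higher in del/del cultures and 14 (0.0997%) lower by limma with Benjamini-Hochberg adjustment at 0.05. An unadjusted limma p under 0.05 was reached by 1382 of the 14044, in either direction. Casp1 and Casp12 were among the 203, Casp8 was not, and none of the 6 was among the 14. With the line as a block 561 genes were called in either direction, against 217 (1.55%) without it, and Casp8 was then among them. In 776 genes (5.53%) every del/del library lay above every fl/fl library, and in 139 (0.990%) below. Casp1, Casp12 and Casp8 were among the 776. Since the genes were chosen with these differences known, nothing is read from their share. Whether Casp1 and Casp12 were called depended on single libraries: neither was called without female del/del 1, 2 or 3, male del/del 5 or female fl/fl 3, and Casp1 not without female fl/fl 1 or male fl/fl 5. Their log2 fold changes with 1 library left out ran from 0.93 to 1.14 for Casp1 and from 1.08 to 1.37 for Casp12. In such bulk samples a higher level in each cell and more cells that express the gene cannot be told apart.

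Within lines, the del/del culture exceeded the fl/fl culture in all 4 lines for Casp1, Casp12, Casp8 and Casp4. The Casp1 difference was 1.12 in line 1, 1.03 in line 2, 0.64 in line 3 and 1.48 in line 5 (mean 1.07, SD 0.343), on the log2 scale. For Casp12 it was 0.79 in line 1, 0.97 in line 2, 1.47 in line 3 and 1.35 in line 5 (mean 1.15, SD 0.318). The lines thus ranked differently for these neighbouring genes, line 3 having the smallest difference in Casp1 and the highest in Casp12. For Casp8 it was 0.43 in line 1, 0.88 in line 2, 0.51 in line 3 and 0.56 in line 5. Casp4 differed by 2.10 in line 5 but by 0.13, 0.63 and 0.15 in lines 1, 2 and 3.

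Casp9 was lower in del/del in lines 1, 2 and 5, with differences of -0.63, -0.14 and -0.32, and higher in line 3, with 0.12. Casp2 differed by 0.04, -0.22, 0.07 and -0.08 in lines 1, 2, 3 and 5, and Casp6 by 0.13, 0.05, 0.23 and -0.04. Neither gene kept 1 direction over the lines. Of all kept genes 2519 (17.9%) were higher in del/del in all 4 lines and 569 (4.05%) lower. Line 1 is the only pair without the RNA- description, and there Casp1, Casp12 and Casp8 had the same direction as in the 3 pairs with it.

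**Figure D2:**
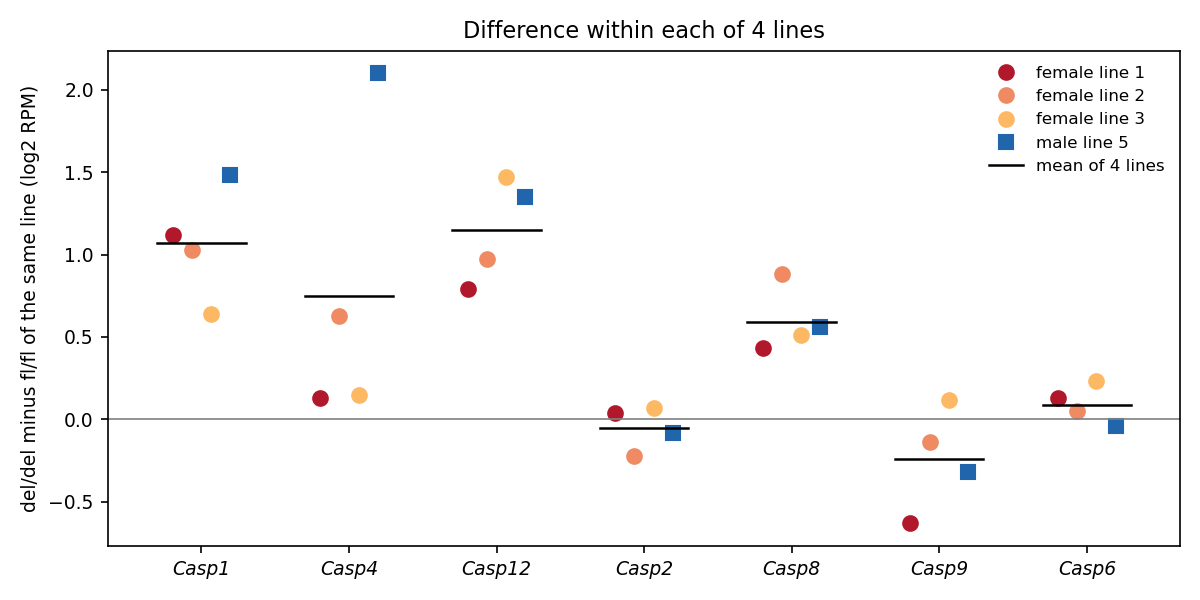
Difference in log2 level between the del/del and the fl/fl culture of the same line (y axis) for the 7 caspase genes, 1 point per line and a bar for the mean of 4 lines. All points of Casp1, Casp4, Casp12 and Casp8 lie above 0, with Casp4 in male line 5 at 2.10, while those of Casp2, Casp9 and Casp6 lie on both sides of 0.

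Of the caspase genes outside the 7, Casp14, a caspase of skin, had 0 to 6 reads in del/del and 0 to 2 reads in fl/fl libraries.

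Levels of different genes were compared per kilobase of exon, from the union of GENCODE vM21 exons. In del/del cultures the order of mean RPM per kb was Casp2 (3.12 ± 0.236), Casp8 (2.99 ± 0.246), Casp9 (1.95 ± 0.29), Casp1 (1.44 ± 0.144), Casp6 (1.42 ± 0.0812), Casp12 (0.814 ± 0.0504) and Casp4 (0.0824 ± 0.0334, SD, n = 4 each). In fl/fl cultures it was Casp2 (3.32 ± 0.331), Casp9 (2.37 ± 0.271), Casp8 (2.02 ± 0.332), Casp6 (1.35 ± 0.0535), Casp1 (0.679 ± 0.11), Casp12 (0.347 ± 0.0892) and Casp4 (0.045 ± 0.0133, SD, n = 5 each). Casp8 thus stood above Casp9 in del/del and below it in fl/fl by the means, and the Casp1 mean was close to that of Casp6 in del/del, where Casp1 was the lower of the pair in female del/del 1 and 3, while Casp1 was below Casp6 in every fl/fl library. The ranges of Casp2 and Casp8 and of Casp1 and Casp6 overlapped in del/del libraries, and those of Casp9 and Casp8 in fl/fl libraries.

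This order depends on the length used, since the sources do not say whether reads in introns were counted. Per kilobase of the whole row the fl/fl means were 1.34 for Casp2, 0.594 for Casp6, 0.552 for Casp9, 0.116 for Casp1, 0.112 for Casp8, 0.0483 for Casp12 and 0.00597 for Casp4. Casp8, whose row spans 52.13 kb, moved down by this measure, and Casp12 and Casp4 stayed lowest.

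**Figure D3:**
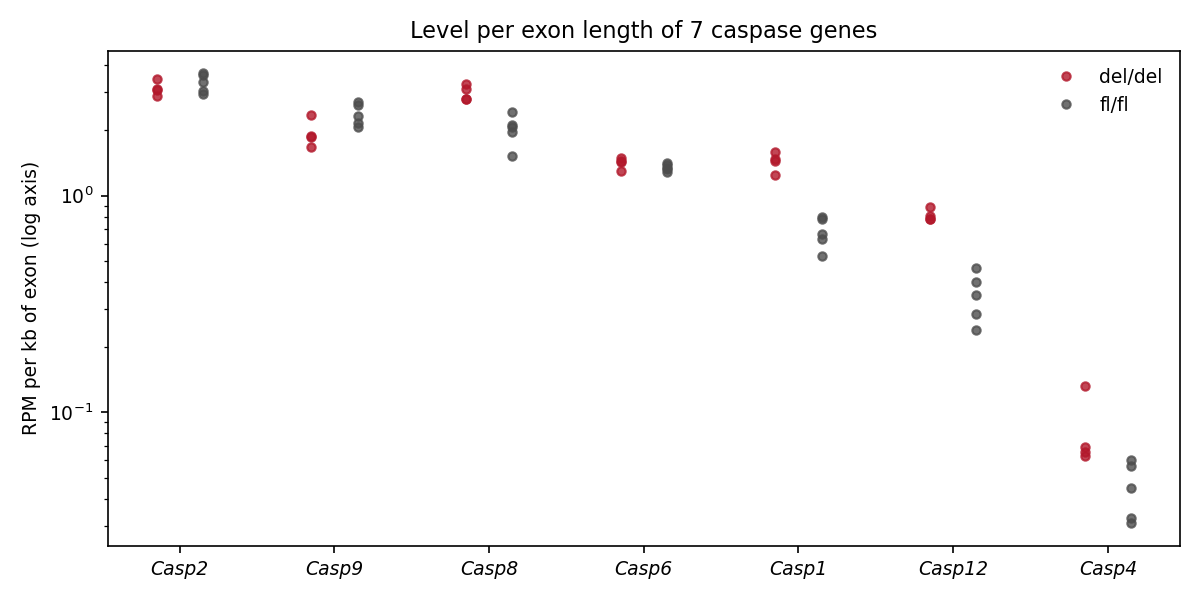
RPM per kb of exon (log y axis) of the 7 caspase genes, 1 point per library, del/del left of fl/fl for each gene. Casp2 lies at about 3 in both genotypes, Casp4 lowest, below 0.2, and the points of Casp1 overlap those of Casp6 in del/del (1.24 to 1.59 and 1.3 to 1.49) but not in fl/fl libraries (0.528 to 0.798 and 1.28 to 1.42).

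Sex was not used to choose the genes. Its test in fl/fl cultures compares fl/fl means, but the spread and the filter on low values come from all libraries, del/del included. Its comparison for the genotype difference rests on the values known when the genes were chosen, and for the caspase genes it is a description only. Between female and male fl/fl libraries (n = 3 and 2), 5 of 14044 genes were called (0.0356%), 2 higher in females (0.0142%) and 3 lower (0.0214%), and 0 of the 6 caspase genes past the filter, 0 at an unadjusted p under 0.05 and 0 by voom. Casp1 was at 0.15 on average in female and -0.21 in male fl/fl libraries, a log2 difference of 0.36 (SE 0.291, interval -0.29 to 1.02, limma adjusted p = 0.992). Casp12 was at 0.52 in female and 0.15 in male fl/fl libraries, a difference of 0.37 (SE 0.296, interval -0.30 to 1.04, limma adjusted p = 0.992). The other 4 had differences of -0.14 to -0.03. The upper ends of the Casp1 and Casp12 intervals lie above 1, so a level 2-fold higher in female fl/fl cultures lies inside them.

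The genotype difference was also compared between the sexes, with the lone male del/del library assumed to vary like the other groups. Female minus male, it differed by -0.42 for Casp1 (interval -1.48 to 0.65), -0.54 for Casp12 (-1.62 to 0.54), 0.19 for Casp2, 0.03 for Casp8, 0.21 for Casp9 and 0.21 for Casp6, each with a limma adjusted p of 1. By limma 0 of 14044 genes (0%) were called in this comparison and 6 had an unadjusted p under 0.05, none of them a caspase gene, and voom called 0 of the 6 caspase genes. In females alone the log2 fold change was 0.93 for Casp1, 1.08 for Casp12 and 0.61 for Casp8, and 2 genes (0.0142%), neither a caspase, were called there.

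The levels of Casp1 and Casp12 over the 9 libraries had a Pearson correlation of 0.88, which was 0.04 after each genotype's mean was taken off. Casp12 and Casp8 had 0.81 (0.10 with the means taken off), Casp1 and Casp4 had 0.80 (0.54), and Casp1 and Casp8 had 0.74 (-0.39). The genes most like Casp1 over the 9 libraries were D3Bwg0562e (0.984), Vat1l (0.981) and Pcdhb2 (0.979), and those most like Casp12 were Mr1 (0.979), Fmn1 (0.977) and Ifit1 (0.974). For Casp8 they were Nsun7 (0.981), Pde2a (0.978) and Parm1 (0.973). For Casp2 they were Rassf2 (0.967), Irf3 (0.965) and Mad1l1 (0.959), for Casp9 Tmem194b (0.938), Cacna2d4 (0.928) and N4bp3 (0.928), and for Casp6 A2ld1 (0.913), Hs3st2 (0.906) and Aph1b (0.898). These are the highest of 14044 correlations over 9 libraries, which share their depth and lines, and they carry no test.

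Rows that fell short of the filter were not considered as neighbours of the caspase cluster on chromosome 9. The nearest kept genes on each side of the cluster were not called. To its left, Gria4, a glutamate receptor subunit gene 502.3 kb away, had a log2 fold change of -0.13 (SE 0.134), and 8430410K20Rik had -0.08. To its right, Dync2h1, a motor protein gene of cilia 1555 kb away, had -0.03 (SE 0.11), and Dcun1d5 had -0.11 (SE 0.206), all with a limma adjusted p of 0.997. Cflar, the inhibitor of Casp8 that stands 36.49 kb from it, had -0.20 (SE 0.121, limma adjusted p = 0.786).

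Upstream of the inflammatory caspases, 0 of 3 kept inflammasome genes out of 14 listed passed, with 0 at an unadjusted p under 0.05 and 0 by voom, and the median log2 fold change was -0.01. Of all 14044 kept genes 1382 had such an unadjusted p. The sensor gene Nlrc4 had -0.12 (SE 0.248). Naip1, its partner that binds bacterial proteins, had 1.00 (SE 2.17), and its level was -7.02 to -4.27 in the 3 libraries without the RNA- description and 1.14 to 2.46 in the other 6. Pycard, the adaptor that links sensors to Casp1, had 7 to 24 reads per del/del and 2 to 14 reads per fl/fl library. Nlrp3 had 6 to 15 reads per del/del library and 1 to 22 per fl/fl library, and both fell short of the filter. So did Aim2, a sensor of DNA in the cytosol, named after its values were seen, with -2.21, -2.19, -1.50 and -2.50 in female del/del 1, 2 and 3 and male del/del 5, against -3.17, -4.74, -3.97, -4.13 and -3.27 in female fl/fl 1, 2 and 3 and male fl/fl 5 and 7. Its groups did not overlap, on 16 to 35 reads per del/del and 0 to 13 reads per fl/fl library. Of the 14044 kept genes 776 (5.53%) were likewise separate and higher in del/del. Other listed genes, among them Fas, Mlkl, Irf9 and Gbp6, had the same separation.

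Downstream of them, 0 of 5 kept genes for pyroptosis effectors and cytokine substrates out of 8 passed by limma or voom (1 at an unadjusted p under 0.05), with a median of 0.11. Il33, an alarmin that caspases inactivate, had 0.45 (SE 0.148, limma adjusted p = 0.255), and Gsdmd, the pore-forming substrate of Casp1 and caspase-11, had 0.13 (SE 0.159). Il1b, the main cytokine substrate of Casp1, had 0 to 2 reads per del/del library and 0 to 1 per fl/fl library. Il18 was at 2.98 to 3.20 in del/del and 2.71 to 3.41 in fl/fl libraries, groups that overlap.

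Among guanylate-binding proteins and partners, which open bacterial vacuoles and membranes to caspase-11, 4 of 8 kept genes out of 10 rose and 0 fell. Of all kept genes 1.45% rose and 0.0997% fell. The median was 0.48, against -0.00 over all kept genes. Gbp8 rose 7.04-fold (2.81 on the log2 scale, SE 0.196, limma adjusted p = 0.000886) and Gbp9 7.31-fold (2.87, SE 0.22, limma adjusted p = 0.00109), and their rows overlap. Irgm2 rose 3.36-fold (1.75, SE 0.233, limma adjusted p = 0.0084) and Irgm1 1.83-fold (0.87, SE 0.118, limma adjusted p = 0.00843). Irgm2 lay at -0.59 to -0.21 in fl/fl libraries, so it passed the filter through the del/del libraries alone, and its call is a description only. The Irgm2 and Irgm1 calls were lost without male del/del 5 (limma adjusted p = 0.125 and 0.113). Gbp5, best known for inflammasome activation in mice, had -0.50 (SE 0.224, limma adjusted p = 0.499), and Gbp2 had 0.09.

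Of the transcription factors tied to interferon, 1 of 5 kept genes out of 6 rose, beside 1.45% of all kept genes, and 0 fell. The median was 0.39. Irf7, a master regulator of type I interferon, rose 3.37-fold (1.75 on the log2 scale, SE 0.303, limma adjusted p = 0.0231), on 87 to 237 reads per del/del and 9 to 78 reads per fl/fl library. Its fl/fl levels of -1.42 to -0.54 were all below the filter's level of 0. Irf7 thus passed the filter through the del/del libraries alone, and its call is a description only. The call was held in 12 of 19 alternatives (limma adjusted p from 0.00675 to 0.248), and was lost without female del/del 2 or 3, male del/del 5, female fl/fl 3 or male fl/fl 5. Irf1 and Irf9 had 0.39 each (limma adjusted p = 0.76 and 0.242). The members of these lists were chosen with such changes already known, so they are not independent support for them.

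In the apoptotic routes no list had a gene that passed. Over all 14044 kept genes, 1382 had an unadjusted p under 0.05, in either direction. Of the death receptors and their complexes, which act through Casp8, 0 of 11 kept genes out of 14 passed by limma or voom, while 4 had an unadjusted p under 0.05, all higher in del/del, and the median was 0.13. These were Mlkl, the executor of necroptosis, with 0.43 (SE 0.142, limma adjusted p = 0.25), the death receptor genes Tnfrsf10b with 0.31 (SE 0.103, 0.263) and Fas with 0.60 (SE 0.204, 0.277), and the adaptor Tradd with 0.44 (SE 0.181, 0.436), the last 2 named after their values were seen. The adaptor Fadd, which recruits Casp8, had -0.04.

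On the mitochondrial route 0 of 6 genes of the apoptosome and of mitochondrial release passed, with a median of 0.01. Apaf1, the scaffold of the apoptosome and activator of Casp9, had -0.00 (SE 0.122), Endog had 0.07, and Cycs, the cytochrome c gene, had 0.30 (SE 0.627). The Cycs level was 2.16 to 2.87 in the libraries without the RNA- description and 4.06 to 5.29 in the others. Of the BCL2 family, which controls cytochrome c release, 0 of 13 kept genes out of 18 passed, with a median of 0.05 and a range of -0.14 to 0.18. Bad had 0.18 (limma adjusted p = 0.642) and Bbc3 0.16 (0.94), and both encode death-promoting members.

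Of the inhibitors of apoptosis 0 of 4 kept genes out of 6 passed, with a median of -0.03, Birc5 at -0.18 and Birc6 at 0.10. Cradd, the PIDDosome adaptor of Casp2, had 0.10 (SE 0.186). Of the substrates that executioners cut, 0 of 8 kept genes out of 9 passed, with a median of -0.12. Dffa, the inhibitor of the DNase of apoptosis, had 0.21 (limma adjusted p = 0.65), and Dffb, the DNase itself, had -0.15 (0.788). In these 5 lists from the apoptosome to the substrates, 0 genes had an unadjusted p under 0.05, and voom called 0.

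**Figure D4:**
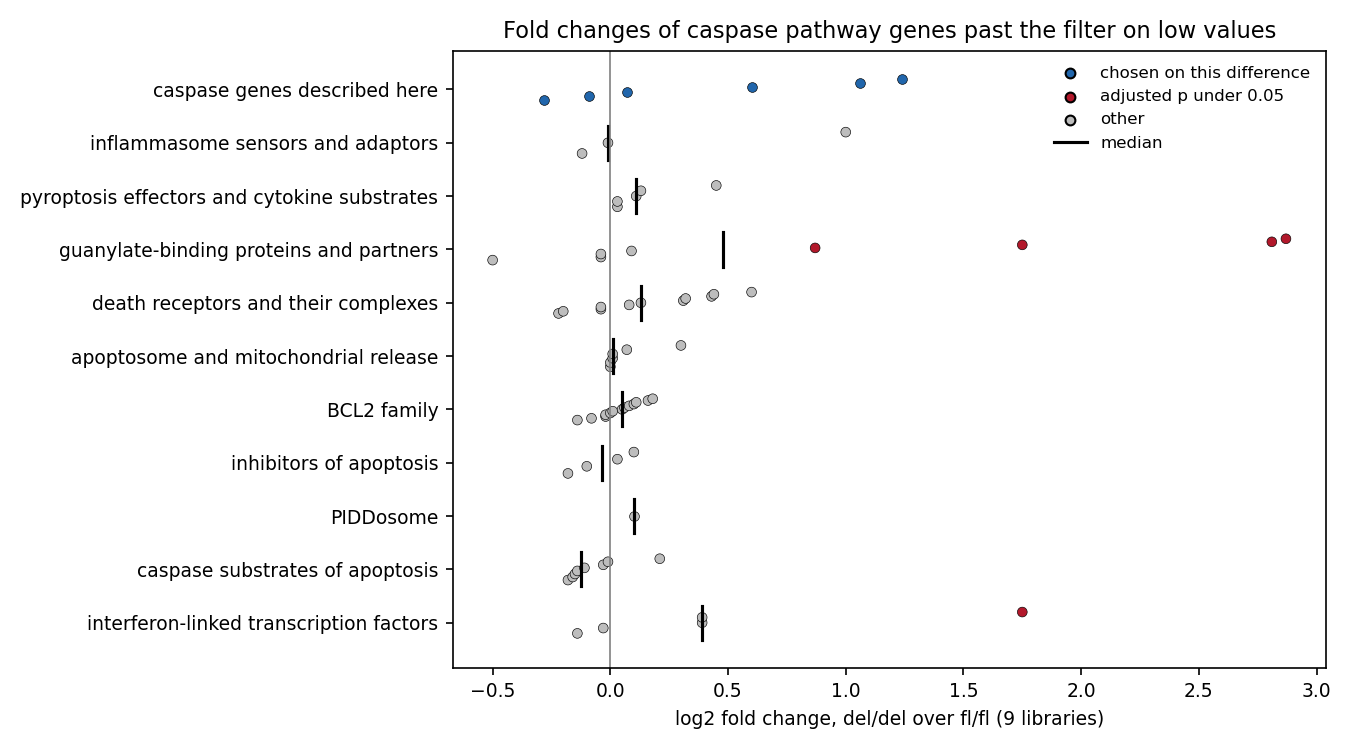
Log2 fold change, del/del over fl/fl (x axis), of each kept gene of the caspase lists, 1 row per list, with the list median as a bar. The called genes, in red, are Gbp8, Gbp9, Irgm1 and Irgm2 among the guanylate-binding proteins and partners and Irf7 among the interferon-linked factors, and the caspase genes described, in blue, run from -0.28 to 1.24 and were chosen on this difference.

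Inflammatory caspases are abundant in microglia and leukocytes, so markers of these cells were read beside them. Of 16 markers 4 passed the filter and 0 were called by limma or voom (1 at an unadjusted p under 0.05, beside 1382 of all 14044 kept genes). The summed level of the markers was 113 to 125 RPM in del/del and 98.2 to 132 RPM in fl/fl libraries. Trem2 had 0 reads in all 9 libraries, Tmem119 0 to 4 and Tyrobp 0 to 2 reads per del/del library with 0 in each fl/fl library, and Ptprc 2 to 5 reads per del/del and 0 to 7 per fl/fl library. Other markers of the list were read well above 0. Cx3cr1 made up most of the sum, at 6.56 to 6.73 in del/del and 6.38 to 6.85 in fl/fl libraries. Csf1r had 434 to 626 reads per del/del and 152 to 738 per fl/fl library, and P2ry12 had 369 to 561 and 107 to 850. Cd68 had a log2 fold change of 0.59 (SE 0.169, limma adjusted p = 0.164) and P2ry12 -0.12. Of 5 kept astrocyte markers out of 6, 3 rose, beside 1.45% of all kept genes. Gfap, the intermediate filament gene, rose 4.19-fold (limma adjusted p = 0.0194), the water channel gene Aqp4 3.17-fold (0.0231) and the glutamate transporter gene Slc1a2 1.58-fold (0.0318). These calls held in 14, 13 and 12 of 20 alternatives for Gfap, Aqp4 and Slc1a2. Leaving out any one of female del/del 1, female del/del 2, male del/del 5 and female fl/fl 3 ended all 3 calls, with limma adjusted p up to 0.259. Leaving out female del/del 3 ended those of Aqp4 and Slc1a2, and leaving out male fl/fl 5 ended the Slc1a2 call. S100b had 0.56 and Aldoc 0.00, neither called. The summed level of the list was 73.7 to 89.2 RPM in del/del and 48.8 to 77.4 RPM in fl/fl libraries. Its part in the caspase differences was not tested. Of 6 fibroblast markers 0 passed the filter. They summed to 1.87 to 13.3 RPM in del/del and 1.95 to 2.97 RPM in fl/fl libraries. In female del/del 2 the collagen genes stood apart, with Col1a1 at 2.53, Col1a2 at 2.67 and Col3a1 at -0.81. The other del/del libraries had -0.63 to -0.60, -0.38 to -0.14 and -2.93 to -2.04. Pdgfrb did not follow, at -0.79 in female del/del 2 against -1.97 to -0.52 in the other del/del libraries. Dcn had 0 to 4 reads per del/del library, and Lum had 0 in all 9 libraries. Of 5 endothelial markers 1, Kdr, passed the filter. The 5 summed to 2.99 to 5.01 RPM in del/del and 2.03 to 3.45 RPM in fl/fl libraries, and the groups overlapped for each of them. Cdh5 and Cldn5 each had 0 to 4 reads per del/del and 0 to 8 reads per fl/fl library. Neuron markers summed to 32.8 to 46.0 RPM in del/del and 39.4 to 62.2 RPM in fl/fl libraries. Kdr had a log2 fold change of 0.61 (limma adjusted p = 0.497). The neuron markers Tubb3 and Rbfox3 had -0.36 and -0.50 (limma adjusted p = 0.514 and 0.677), and none of these was called. Of the 10 neural stem cell markers 3 lay above 0 and 7 below, from -0.21 to 0.30 with a median of -0.07, and 0 were called. Msi1 and Nr2e1, with the smallest p of that list, had 0.17 and 0.12.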

How the data were processed

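Total RNA of 9 neural stem cell libraries was sequenced. Among the tools in the submitters' processing notes are TopHat2 2.0.12, bcl2fastq and edgeR 3.8.2, and the build is mm10. Not given in the sources used here are the read counter, the annotation and the strandedness. The authors deposited 1 table of log2 RPM. In every library at least 99.9961% of its values came out as whole reads within 0.05 reads once scaled to the library's depth, with 0 reads entered as 0.9 reads, which gave back depths and reads.

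Groups follow the sample titles, which differ from the series' design text. The deposited log2 levels were tested two-sided by limma 3.58.1 (R 4.3.3, lmFit and eBayes with trend), with Benjamini-Hochberg adjustment over the 14044 kept genes at 0.05. Del/del was compared with fl/fl with sex as a covariate. The effect in females, its difference between the sexes and sex in fl/fl came from 1 model of 4 group means. The fits were run on simulated reads, drawn independently, with no line pairs and no split by the RNA- description. That run therefore does not vouch for the calls in these libraries. As the table held log2 values, no negative binomial test was run, and limma's voom on the recovered reads was an alternative.

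Line numbers pair the cultures, since the labels' protocols say that each line was divided. Over genes, deviations from the group mean of the same line had r of 0.868, 0.582 and 0.758 in the 3 female lines, but those of female del/del 2 and female fl/fl 3 had 0.728. Those of female del/del 3 and female fl/fl 2 had 0.494. Line 1 is also the only pair without the RNA- description. Line origin and description therefore cannot be told apart by these r, and the pairing rests on the labels. Promoters came from RefSeq (GRCm38.p6) and exons from GENCODE vM21.

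The genes described and all lists were chosen with earlier results of these data known. No p is therefore printed for the genotype difference of these caspases. Where they are said to be called or not, this describes their place among all kept genes and is not a test of them. By the rule for naming, each list gives its called members and the 2 others with the smallest p, each caspase past the filter the 3 kept genes with the highest correlation, and the chromosome 9 cluster its 2 nearest kept rows on each side. Other genes named from a list, such as Pycard, Nlrp3, Il1b, Aim2, Il18, Fadd, Apaf1, Fas, Tradd and Cx3cr1, were named after their values were seen. Some genes are not reported here and were left out of the lists. Counting error alone is covered by the Poisson intervals.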

Additional observations from a re-analysis of the deposited data

Results flagged for a closer look

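In groups of 4 or 5 libraries, 8 of 90 combinations of gene and genotype had 1 library far from the others by Dixon's criterion at 95%, where chance gives about 1 in 20. Among the caspases described this was Casp4, at -1.03 in male del/del 5, with the next del/del library at -1.96. Female fl/fl 2, the shallowest library, stood apart for Nlrc4 (2.66), Birc5 (4.95) and Dffa (2.99). Female del/del 1, the only del/del library without the RNA- description, stood apart for Nlrc4 (1.94), Naip1 (-5.21), Cycs (2.87) and Aldoc (5.68).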

How the results depend on the processing

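Over 19 or 20 alternatives the log2 fold change ran from 0.63 to 1.14 for Casp1, 0.82 to 1.37 for Casp12, 0.48 to 0.70 for Casp8, -0.38 to -0.11 for Casp9, -0.15 to -0.03 for Casp2 and -0.02 to 0.13 for Casp6. Casp12 was called in 12 of 20, Casp1 in 8 of 19 and Casp8 in 2 of 20, namely without female fl/fl 1 and under the line block. With the block, 561 genes were called over both sexes (217 without it) and 275 in females (2 without it), 3 of them caspases described here over both sexes. With block and median centring 24 were called in females, and 1 of the caspases over both sexes. The block changed no list count, and it could not be fitted for sex in fl/fl, as each line has 1 sex.

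Over both sexes quantile normalization gave 104 calls and 0 of the caspases, the stricter filter (4 or more libraries at a level of 1 or above) 0 of the caspases, and the 6 RNA- libraries 1. With reads in listed genes as library size, chosen after seeing the data, 69 genes were called and 0 of the caspases. In females the count was 1 with median centring or that library size, 39 with log2 RPM plus 1, 28 with voom and 0 in the RNA- libraries. For sex in fl/fl it was 2 with the stricter filter and 2 in the RNA- libraries.

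Leaving out 1 library gave 2 to 249 calls over both sexes, 0 to 2 of the caspases, 0 to 7 calls in females and 2 to 6 for sex in fl/fl. The count over both sexes was 2 without male del/del 5, 52, 65 and 131 without female del/del 2, 1 and 3, 94 without female fl/fl 3, and 117 when male fl/fl 5 was left out. The difference between the sexes had 0 calls by limma in every alternative and was not fitted without male del/del 5. The cause of these shifts was not tested. Depth limits Casp4, at 4 to 50 reads per library, most.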
